A study of Mus musculus with 16 samples.

Results

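The comparison described here is the effect of cycloheximide (CHX), an inhibitor of translation elongation, on mRNA levels in mesodermal progenitor cells in which Notch1 had been activated. It rests on the arrays whose labels read induced with 4-hydroxy-tamoxifen (OHT), 2 with CHX and 2 without, which are 4 of the 16 arrays of the series. All cells were mouse EB5 NERT embryonic stem cells (ESC) after mesodermal differentiation, which the labels call mesodermal progenitors. The line and the 4 d of differentiation are from the study, whose methods give a range of days that starts at 4. NERT is the intracellular domain of mouse Notch1 fused to a hormone-binding domain, which the line carries in the pCAG expression vector. OHT at 1 µM for 4 h moves NERT into the nucleus. CHX was given at 50 µg/ml during the same treatment. The uninduced NERT mesodermal cells, again with 2 arrays without CHX and 2 with CHX, show what CHX did without active Notch1. The remaining 8 arrays are 4 of NERT ESC in ectodermal or mesodermal medium and 4 of control cells carrying the vector without NERT. The study used CHX to ask which mRNAs Notch1 can raise when no new protein is made. The sources used here do not say whether the replicate arrays came from separate cultures, so the tests take their error from the spread of these arrays alone, which may be technical.

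Cleaved Notch1 enters the nucleus, binds the DNA-binding protein RBPJ and turns it from a repressor into an activator. The best known genes switched on in this way encode the Hes and Hey repressors, which in turn shut off other genes and, for several of them, their own. When translation stops, short-lived repressors and mRNA decay factors are no longer replaced, and the mRNAs of many early response genes are known to accumulate, while genes that need a newly made activator are not switched on.

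Values are the authors' model-based intensities, a linear scale on which the 4 OHT arrays had medians of 42.9 to 46.5. With 25 added to every value, changes are given on the log2 scale, which understates the change of weakly expressed genes, and a gene is read from its brightest probe set. Over the 23971 probe sets tested, arrays of the same condition differed by 0.24 to 0.39 (root mean square of log2 differences), and arrays with OHT differed from arrays with OHT and CHX by 0.72 to 0.83. Replicate 1 of OHT with CHX lay 0.42 and 0.43 from the arrays with CHX alone, and replicate 2 lay 0.32 and 0.30 from them. Of 10 early mesoderm markers, 9 were found by symbol. T (Brachyury), which the study reports from its arrays as a mesoderm marker, was not found by that symbol and is left out here. Of the 9, 8 had means of 50 or more with OHT and 7 were lower with CHX. The summed intensity of the 9 was 4670 to 4705 with OHT and 1202 to 1525 with OHT and CHX. The 5 markers of undifferentiated ESC were all at 50 or more, with sums of 5775 to 5912 and 6136 to 7323. The 6 markers of endoderm summed to 130 to 189 with OHT, where all were under 50, and to 403 to 583 with OHT and CHX, where Gata4, Afp and Ttr were still under 50. Of 5 neuroectoderm markers Pax6, Sox1 and Zic1 were under 50 with OHT, and all were at 50 or more with OHT and CHX. The sums were 1385 to 1556 and 2011 to 2032, and with CHX 4 of the 5 were higher and Fabp7 was lower. Of 6 blood and endothelial markers Cdh5 and Pecam1 were under 50 in both, and Lmo2 was under 50 with OHT and CHX. In bulk RNA a change in the number of cells of a type and a change in RNA per cell cannot be told apart, and the part of such shifts in the results below was not tested.

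CHX changed a large share of the transcriptome in mesodermal cells with active Notch1. Of 23971 probe sets, 6342 (26.5%) were higher and 3360 (14.0%) lower (limma, adjusted p under 0.05), with a median change of 0.10 over all of them. Taken as 1 probe set for each of 12188 genes, 31.0% were higher and 11.1% lower, with a median of 0.17, and in uninduced cells 24.3% and 9.48%, with a median of 0.11. The gene groups below are read against these shares. A gene was tested if any of the 4 conditions had a mean of 50 or more, and 748 of the 12188 met this on CHX arrays alone (482 of them higher) and 371 on arrays without CHX alone (137 lower). Of the 11069 genes that met it on both sides 3294 were higher (29.8%) and 1220 lower, and such counts are given below for lists that hold several genes tested on a single side. The balance of higher and lower depends on how arrays are scaled. Rises were 65.4% of the calls on the deposited scale and 49.9% after quantile normalization (5176 higher, 5196 lower) or after setting equal array medians (5068 higher, 5097 lower), where the median of all probe sets moved by -0.14 and -0.15. No probe set called in one direction on the deposited scale was called in the other in any of the alternatives compared with it. A criterion of a 2-fold change of the group means and a difference over 50, applied to all 45037 probe sets, gave 7.11% higher and 2.73% lower. Without replicate 2 of OHT the lower calls numbered 2112, and without replicate 1 of OHT with CHX they numbered 2079.

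Uninduced cells showed much of the same effect. Across 23971 probe sets the change with CHX in induced cells and that in uninduced cells had a Pearson r of 0.90, a description over probe sets measured on the same platform, in which no array enters both changes. In uninduced cells 5059 probe sets (21.1%) were higher with CHX and 2812 (11.7%) lower. Of the 6342 probe sets higher in induced cells 4495 were also higher in uninduced cells and 6 were lower, and of the 3360 lower ones 2131 were also lower and 1 was higher. The scatter of both changes shows the probe sets along the diagonal and 6 that passed the test of the difference itself.

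**Figure D1:**
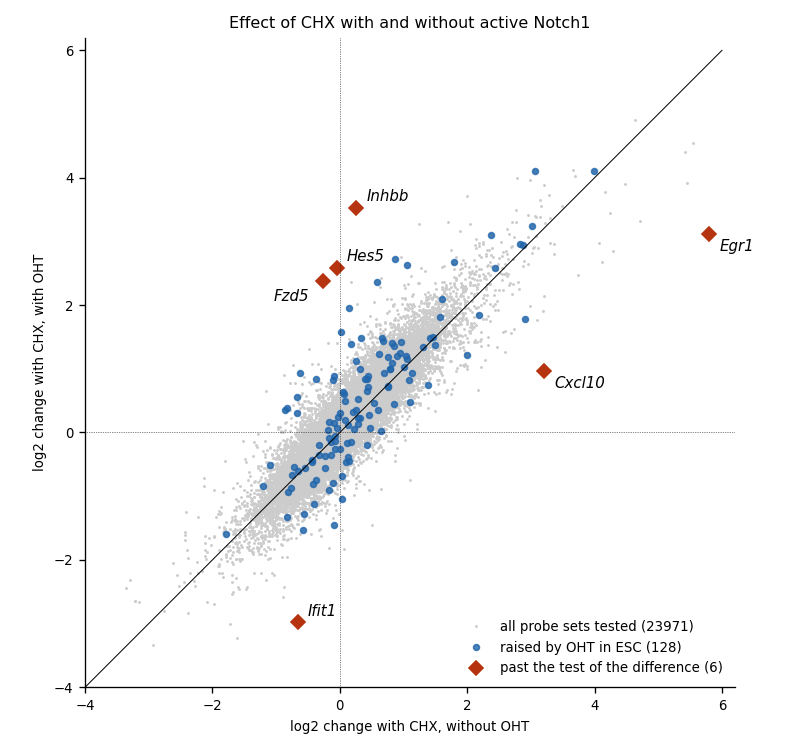
Each grey point is 1 of 23971 probe sets, with its log2 change with CHX in uninduced mesodermal cells on the x axis and in OHT-induced cells on the y axis. Blue points are the 128 probe sets raised by OHT in ESC, and red diamonds are the 6 probe sets whose 2 changes differed by limma, with Inhbb, Hes5 and Fzd5 above the diagonal and Egr1, Cxcl10 and Ifit1 below it.

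Notch1-raised genes were defined in 3 ways, by a higher value with OHT in ESC (131 probe sets, 0.507% of those tested), in mesodermal cells without CHX (147, 0.613%) and in mesodermal cells with CHX (136, 0.567%). In control cells without NERT no probe set was called with OHT. That test took a shared term over an ESC pair and a mesoderm pair of unreplicated arrays, none with CHX. The list raised with CHX therefore has no counterpart in control cells. Of the 3 lists, that from ESC shares no array with the effect of CHX. Of its 131 probe sets 128 were tested, and 61 (47.7%) were higher and 20 (15.6%) lower with CHX in induced mesodermal cells, with a median change of 0.51 beside 0.10 for all probe sets. The median of the same list was 0.26 in uninduced cells, and the median of its 128 differences was 0.11, with 75 above 0. This is near the background, since 56.1% of the differences of all 23971 probe sets were above 0, with a median of 0.04. Over the 4 pairings of an array with CHX and an array without, the list median was 0.39 to 0.65. Without replicate 2 of OHT, or without replicate 1 of OHT with CHX, 13 probe sets of this list were lower in place of 20.

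The other lists were drawn from arrays that also enter the effect of CHX, which pushes their values in a known direction, and they are given only as a description. The same push acts on the CHX changes, and their p-values, of genes named below as Notch1-raised through these lists alone. The 147 probe sets raised by OHT without CHX were picked for high values on the OHT arrays. Of these 45 were higher and 49 lower with CHX, with a median of -0.05, and in uninduced cells, whose arrays without CHX also served to pick the list, 43 were higher and 22 lower, with a median of 0.16. The 136 probe sets raised by OHT with CHX were picked for high values on the arrays with OHT and CHX, and 91 were higher and 13 lower, with a median of 0.94. In gene terms 172 genes were in at least 1 of the lists, of which 88 were higher with CHX, 28 lower and 56 not called. The 31 genes in all 3 lists divided in the same 3 ways, with 16 higher, 5 lower and 10 not called.

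**Figure D2:**
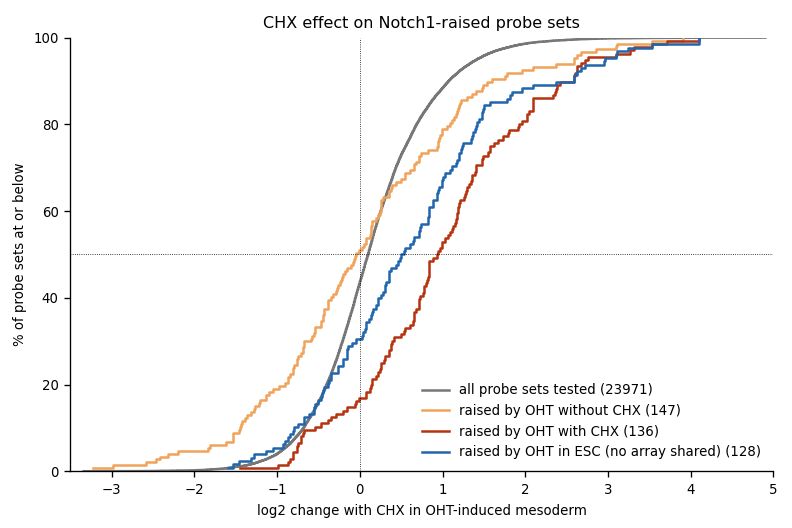
Cumulative share of probe sets (y axis, percent) at or below a given log2 change with CHX in OHT-induced mesodermal cells (x axis), for all 23971 probe sets and the 3 lists raised by OHT. The curve of the list from ESC has its median at 0.51, to the right of all probe sets at 0.10, and the lists from mesodermal cells lie at -0.05 and 0.94. The change with OHT in ESC shares no array with the change with CHX, but its test took the spread from all arrays.

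Hes5, Hes1, Hey1 and Heyl among the Hes and Hey repressors were higher with CHX in induced cells. Hes5, a bHLH repressor of neural and presomitic tissue, stood at 25.1 and 23.2 in uninduced cells and at 66.4 and 34.6 with CHX alone. With OHT it was at 1609 and 1348, and with OHT and CHX at 7343 and 8119. The arrays of the 4 conditions did not overlap, and the high values were confined to arrays with OHT. The change with CHX in induced cells was 2.37 (SE 0.22, adjusted p = 3.3e-05), and in uninduced cells 0.59 (adjusted p = 0.061). The other probe set of Hes5 read 369 and 340.1 with OHT and 1782 and 2873 with OHT and CHX, and 8.74 and 10.4 with CHX alone. Its changes with and without OHT differed by 2.64 (SE 0.31, adjusted p = 0.024), while the brighter probe set gave a difference of 1.78 (adjusted p = 0.16).

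Hes1, another bHLH repressor, which limits its own transcription, was called higher with OHT in the presence of CHX and not in its absence. It read 352 and 299 in uninduced cells and 328 and 340.4 with OHT, and the arrays of these conditions overlapped. With CHX alone it read 1071 and 1754, and with OHT and CHX 3785 and 5836. It was higher with CHX in both settings, by 3.72 (SE 0.26, adjusted p = 9.7e-06) with OHT and by 2.00 (adjusted p = 0.00032) without, and the difference of 1.72 missed the threshold (adjusted p = 0.34). The change with OHT was 0.04 without CHX (adjusted p = 1.0) and 1.76 with it (adjusted p = 0.0089).

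Hey1, a Hes-related repressor of heart and vessel development, read 94.9 and 96.4 in uninduced cells, 240.2 and 215 with CHX, 513 and 558 with OHT, and 2806 and 4239 with both. Each added agent gave higher arrays with no overlap, and the CHX change was 2.63 (SE 0.21, adjusted p = 1.5e-05) with OHT and 1.06 without. Heyl, the third Hey gene, read 134 and 178 with OHT and 267 and 498 with OHT and CHX. Its CHX change of 1.12 (SE 0.25, adjusted p = 0.0056) was accompanied by 0.26 (adjusted p = 0.45) in uninduced cells. Hey2 and Hes7 were not called. Hey2 read 662 and 1025 with OHT and 967 and 1208 with both agents, so the arrays overlapped (0.38, SE 0.24, adjusted p = 0.24), and Hes7, of the segmentation clock, read 499.8 and 381 against 287 and 351 (-0.43, SE 0.19, adjusted p = 0.096). Of the 8 Hes and Hey genes tested 4 were higher with CHX and none lower on the deposited scale, with a median change of 0.75, beside 31.0% and 11.1% of all genes. After quantile normalization or with equal array medians 1 was lower.

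No promoter sequence was available here for Hes1, Hey1 or Heyl. Those of Hes5, Hey2, Hes7 and the Notch modulator Lfng are shown as examples that hold the RBPJ recognition sequence, because the Notch1 and RBPJ complex acts at promoters of its target genes. Each is the 250 bases before the start of the RefSeq transcript on GRCm38.p6, read on the strand of the gene, with matches to GTGGGAA, the RBPJ recognition sequence, in capitals (TTCCCAC where it lies on the opposite strand). Hes5 lies at chr4:154960673-154960922 on the plus strand and holds 2 matches, which begin 226 and 83 bases before the start. Lfng lies at chr5:140607091-140607340 (plus strand, 1 match), Hey2 at chr10:30842784-30843033 (minus strand, 1 match) and Hes7 at chr11:69120203-69120452 (plus strand, 1 match). Hes5 and Lfng were higher with CHX in induced cells, and Hey2 and Hes7 were not called.
Hes5: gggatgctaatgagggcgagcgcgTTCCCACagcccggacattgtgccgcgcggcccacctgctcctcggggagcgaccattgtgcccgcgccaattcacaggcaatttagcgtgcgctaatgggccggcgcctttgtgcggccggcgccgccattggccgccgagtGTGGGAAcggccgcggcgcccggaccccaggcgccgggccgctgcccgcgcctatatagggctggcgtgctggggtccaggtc
Lfng: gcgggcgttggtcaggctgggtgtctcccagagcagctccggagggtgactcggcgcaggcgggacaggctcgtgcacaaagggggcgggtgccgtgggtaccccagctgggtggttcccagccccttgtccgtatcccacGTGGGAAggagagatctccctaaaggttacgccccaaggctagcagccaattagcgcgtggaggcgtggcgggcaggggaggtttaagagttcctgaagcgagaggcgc
Hey2: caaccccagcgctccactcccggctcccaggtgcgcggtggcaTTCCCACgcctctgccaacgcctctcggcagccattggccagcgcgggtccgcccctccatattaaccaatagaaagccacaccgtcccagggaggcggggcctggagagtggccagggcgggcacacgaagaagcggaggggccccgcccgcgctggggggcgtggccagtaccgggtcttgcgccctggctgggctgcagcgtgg
Hes7: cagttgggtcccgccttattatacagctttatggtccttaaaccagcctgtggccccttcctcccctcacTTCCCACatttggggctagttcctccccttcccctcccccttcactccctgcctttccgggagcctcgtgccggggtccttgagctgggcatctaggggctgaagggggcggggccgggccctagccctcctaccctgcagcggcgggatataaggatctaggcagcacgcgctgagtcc
GTGGGAA was found on either strand in 5.42% of the 32851 promoters of the table. Among Notch1-raised genes with a promoter in the table it was found in 6 of 67 that were higher with CHX (8.96%), in 4 of 18 that were lower (22.2%) and in 6 of 43 that were not called (14.0%). The list from ESC had 12 of 75. A gene counted if any of its promoters matched, while the 5.42% counts single promoters (32851 for 27025 symbols). The shares of genes are therefore not on the same footing as that background. A match is a run of letters and not a measured binding site.

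Among modulators of the pathway, Lfng, the glycosyltransferase that alters how Notch reads its ligands, read 29.5 and 39.0 in uninduced cells, 66.4 and 70.6 with CHX, 155 and 192 with OHT, and 492 and 562 with both. Its CHX change was 1.48 (SE 0.18, adjusted p = 0.00014) with OHT and 0.66 without. Nrarp, a feedback inhibitor of Notch signaling, read 5335 and 5029 with OHT and 6806 and 8474 with OHT and CHX. The arrays did not overlap, but the change of 0.55 (SE 0.21) missed the threshold (adjusted p = 0.056). Its other probe set, at 2679 and 2793 with OHT and 4987 and 5541 with both agents, passed (0.94, adjusted p = 0.0033), and in uninduced cells Nrarp was lower with CHX (-0.68, adjusted p = 0.029). Jag1, a ligand, read 1067 and 1236 with OHT and 1176 and 1383 with both (0.15, SE 0.18, adjusted p = 0.54), with overlapping arrays. Notch1 itself read 1526 and 1569 with OHT and 769.6 and 1441 with both (-0.54, SE 0.25, adjusted p = 0.10), and whether its probe sets also read the NERT transcript was not tested.

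In the rest of the pathway rises and falls were mixed. Of 11 Notch receptors and ligands tested Notch2 rose (664 and 531 with OHT, 1252 and 1303 with both, 1.07, adjusted p = 0.0021), as did the ligand Dll4 (0.44), and none was lower on the deposited scale, while 3 were lower after quantile normalization or with equal array medians. Of 17 modulators 5 were higher and 3 lower, near the shares of all genes, and 3 were higher and 4 lower after quantile normalization or with equal array medians. Of 15 genes for Notch cleavage and the nuclear complex 8 were higher and 3 lower, including Rbpj, which encodes the DNA-binding partner (1139.9 and 1088 with OHT, 2245 and 2573 with both, 1.09, SE 0.18, adjusted p = 0.0010). The corepressor Spen (1.62) and the coactivator Ep300 (0.89) were among those higher, and the gamma-secretase subunit Aph1a (-0.97) and the corepressor Ctbp1 (-0.96) among those lower.

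**Figure D3:**
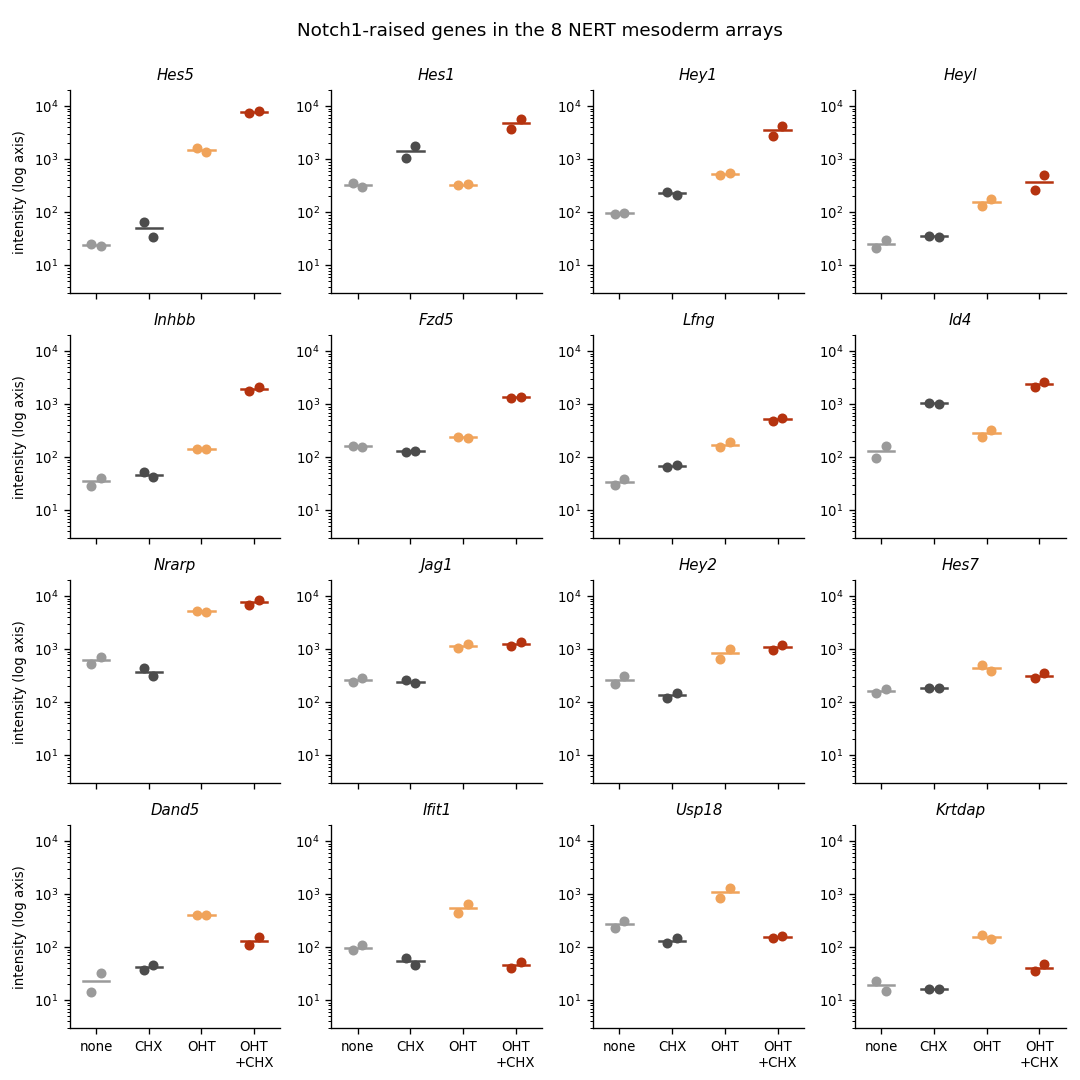
Intensity of 16 Notch1-raised genes (log axis) on each of the 8 NERT mesoderm arrays, with a dot for each array and a line at the mean of the 2 arrays of a condition. The genes in the upper 2 rows were higher with OHT and CHX than with OHT, those in the third row were not called, and those in the bottom row were lower, as for Ifit1 with 450.3 and 647 against 40.6 and 52.7.

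Inhbb, which encodes the activin and inhibin beta-B subunit, showed the largest difference between induced and uninduced cells. It read 28.9 and 41.6 in uninduced cells, 51.9 and 42.0 with CHX, 145 and 144 with OHT, and 1766 and 2108 with OHT and CHX. The last pair was above all others. The CHX change was 3.53 (SE 0.18, adjusted p = 2.6e-06) with OHT and 0.26 (adjusted p = 0.30) without, a difference of 3.27 (SE 0.26, adjusted p = 0.0012). The other, dim probe set of Inhbb read 68.5 and 79.6 with OHT and 110.5 and 99.2 with both, and did not pass (0.39, adjusted p = 0.13).

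Fzd5, a Wnt receptor, read 167 and 154 in uninduced cells, 126 and 134 with CHX, 241 and 235 with OHT, and 1327 and 1367 with both. Its CHX change was 2.38 (SE 0.16, adjusted p = 9.2e-06) with OHT and -0.26 (adjusted p = 0.25) without, a difference of 2.64 (SE 0.23, adjusted p = 0.0019). The other probe set of Fzd5 rose by 3.27 with OHT and by 1.25 without. Of the 22 genes of Wnt signaling tested, Fzd5 was the only one in a list raised by OHT, 4 were higher with CHX and none lower on the deposited scale, and 3 were higher after quantile normalization or with equal array medians, where 4 and 3 were lower.

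Further Notch1-raised genes higher with CHX included regulators of transcription and signaling. Sox9, a factor of cartilage and neural crest, read 153 and 210.0 with OHT and 671 and 1059 with both, and 34.3 and 29.3 rose to 161 and 135 in uninduced cells, so that the change was 2.09 (SE 0.23, adjusted p = 9.3e-05) with OHT and 1.60 without. Id4, an inhibitor of bHLH factors raised by OHT in ESC, read 238 and 332 with OHT and 2103 and 2661 with both, with changes of 2.96 and 2.83. Pax6, a neural and eye regulator also raised by OHT in ESC, read 27.1 and 26.0 and then 166 and 147, with changes of 1.82 and 1.58, although 1 of its 2 probe sets was lower. S1pr3, a receptor for sphingosine-1-phosphate, read 62.3 and 70.2 with OHT and 740.4 and 449 with both (2.72, SE 0.23, adjusted p = 2.1e-05). In uninduced cells S1pr3 read 40.8 and 55.5, and 119 and 95.5 with CHX. Cxcl1, a neutrophil chemokine, read 229.5 and 286 with OHT and 2406 and 2359 with both (3.10, adjusted p = 5e-06). In uninduced cells Cxcl1 rose from 54.15 and 67.8 to 441 and 397 with CHX (2.37), and the difference of 0.73 was not called. Cbfa2t3, a corepressor of blood cells, read 51.5 and 50.8 with OHT and 312 and 258 with both (2.02), against 29.1 and 34.8 and then 37.0 and 51.1 without OHT, and its difference of 1.75 was just outside the threshold (adjusted p = 0.051).

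Read from their brightest probe sets, other Notch1-raised genes kept close to the level that OHT gave them. Kalrn, a guanine nucleotide exchange factor of neurons, read 488 and 573 with OHT and 543 and 482 with both (-0.05, SE 0.23, adjusted p = 0.89), and Cntnap2, a neuronal adhesion protein, 575 and 533 and then 610.2 and 558 (0.07, SE 0.17, adjusted p = 0.77). Myf5, a myogenic bHLH factor, was weakly expressed, at 67.0 and 80.2 with OHT and 89.3 and 79.2 with both (0.15, SE 0.16, adjusted p = 0.49). In each of these the arrays overlapped on the brightest probe set. Of the 4 probe sets of Kalrn tested, however, 1 was higher and 1 lower, and of the 2 of Cntnap2 1 was higher. A change that missed the threshold does not show that the levels were equal, and with 2 arrays a condition the standard errors were 0.16 to 0.23 here. Runx1, the regulator of definitive blood formation, read 220.3 and 204 with OHT and 195 and 219 with both (-0.03, adjusted p = 0.91) on its brightest probe set, which was in none of the lists raised by OHT. Its 5 probe sets disagreed, with 3 higher and 1 lower. The probe set raised by OHT in the presence of CHX read 23.6 and 53.8 with OHT and 346 and 237 with both (2.33, adjusted p = 7.2e-05), and 21.1 and 24.9 and then 86.7 and 66.1 in uninduced cells (1.07).

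The Notch1-raised genes that fell with CHX were led by interferon-induced genes. The chemokine genes Cxcl10 and Cxcl11, likewise raised by OHT without CHX, were higher with CHX instead (0.96 and 1.05). Ifit1, an antiviral RNA-binding protein, read 450.3 and 647 with OHT and 40.6 and 52.7 with OHT and CHX, below the 89.9 and 108 of uninduced cells. Its change was -2.98 (SE 0.21, adjusted p = 9.9e-06), against -0.66 in uninduced cells (62.4 and 45.5 with CHX), and the difference of -2.33 passed (SE 0.30, adjusted p = 0.040). Usp18, which removes ISG15 from proteins, read 838 and 1341 with OHT and 151 and 163 with both (-2.58, SE 0.24, adjusted p = 3.3e-05), against 234 and 312 and then 121 and 147 without OHT. Ifit2 read 145 and 324 and then 38.3 and 51.2 (-1.81, adjusted p = 0.00096), and Ifit3 186 and 309 and then 91.4 and 86.4 (-1.22, adjusted p = 0.0014). None of Ifit1, Usp18, Ifit2 and Ifit3 was called higher with OHT once CHX was present (changes of -0.14, 0.20, -0.04 and -0.03), nor with OHT in ESC (-0.06, 0.08, 0.36 and 0.09). On the OHT arrays replicate 2 was the higher one for each of these 4 genes. All 4 are Notch1-raised only through the list raised by OHT without CHX, which was picked for high values on these arrays. That pushes their change with CHX down, so their p-values for it are given as a description.

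The upstream sequences of Ifit1 and Ifit3 are shown as examples of this group, with matches to the repeat of interferon-response elements in capitals, searched on both strands as 2 copies of GAAA with any 2 bases between them and found here on the opposite strand. Ifit1 lies at chr19:34640639-34640888 on the plus strand with 2 matches, 104 and 85 bases before the start, and Ifit3 at chr19:34583279-34583528 on the plus strand with 2 matches, at 156 and 122 bases.
Ifit1: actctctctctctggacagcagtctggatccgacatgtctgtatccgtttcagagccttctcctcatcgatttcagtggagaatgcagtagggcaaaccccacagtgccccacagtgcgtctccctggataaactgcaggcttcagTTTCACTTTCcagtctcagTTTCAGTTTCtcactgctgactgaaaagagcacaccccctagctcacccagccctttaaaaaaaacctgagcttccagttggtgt
Ifit3: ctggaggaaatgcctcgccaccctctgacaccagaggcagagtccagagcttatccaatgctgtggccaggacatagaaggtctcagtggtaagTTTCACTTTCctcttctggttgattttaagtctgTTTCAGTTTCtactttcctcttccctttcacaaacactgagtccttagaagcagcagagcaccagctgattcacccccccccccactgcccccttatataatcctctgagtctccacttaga
The repeat was found in 2.98% of all promoters of the table and in 5 of the 13 interferon-response genes lower with CHX (38.5%). Here too a gene counted if any of its promoters matched, while the 2.98% counts single promoters. GTGGGAA was found in 0 of these 13.

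Outside the interferon group, Dand5 (Cerl2), a secreted antagonist of Nodal, read 14.3 and 32.1 in uninduced cells, 37.8 and 47.2 with CHX, 406 and 404 with OHT, and 110.2 and 158 with both. It fell by 1.45 with CHX in induced cells (SE 0.22, adjusted p = 0.00051), while OHT still raised it in the presence of CHX (1.22, adjusted p = 0.034). The difference of -1.96 missed the threshold (adjusted p = 0.083). Krtdap, a keratinocyte differentiation protein, read 169.8 and 145 with OHT and 35.2 and 47.5 with both (-1.46, adjusted p = 0.00012). Il33, an interleukin-1 family cytokine, read 301 and 342 with OHT and 145 and 139 with both (-1.05, adjusted p = 0.00063), beside 115 and 101 in uninduced cells. Epas1, which encodes hypoxia-inducible factor 2 alpha, read 362 and 481 and then 202 and 198 (-0.98, adjusted p = 0.0034). Mgst1, a glutathione transferase, fell by 1.39, and Cdx1, a homeobox gene of posterior identity, by 1.10. Tns2, a focal adhesion protein, fell by 0.87 with OHT and by 0.76 without, and remained higher with OHT than without in the presence of CHX (2.27, adjusted p = 0.00016).

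Besides Hes5, Inhbb, Fzd5 and Ifit1, the test of the difference between the changes with and without OHT was passed by Egr1 and Cxcl10 and by no other probe set, 3 in each direction (0.0125% of those tested each). At an unadjusted p under 0.05 there were 1080. Egr1, an immediate early zinc finger factor, read 195 and 184 in uninduced cells, 1329.9 and 1273 with OHT, 11723 and 12159 with CHX, and 10434 and 12439 with both. The arrays with CHX overlapped whether or not OHT was added. Its CHX change was 3.11 (SE 0.14) with OHT and 5.8 without, a difference of -2.70 (SE 0.20, adjusted p = 0.0012). The brightest probe set on the 8 arrays stood at 14989 to 18876, so that Egr1 with CHX was near the top of the scale. Cxcl10, a chemokine, read 40.0 and 33.2 in uninduced cells, 189 and 240.3 with OHT, 572 and 519 with CHX, and 511 and 377 with both, with CHX changes of 0.96 with OHT and 3.21 without and a difference of -2.25 (SE 0.28, adjusted p = 0.040). Inhbb, Fzd5 and Egr1 passed in each of 17 alternative settings, Hes5 in 10 and Cxcl10 and Ifit1 in 9 each, and without replicate 2 of OHT with CHX 18 probe sets were higher and 30 lower by this test.

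Immediate early genes rose with CHX in both settings. Of 19 tested 16 were higher in induced cells and none lower, with a median of 1.41, and 17 were higher in uninduced cells, with a median of 2.44. Of the 16 tested on both sides 13 were higher in induced cells. For 18 of these 19 genes the change was smaller with OHT than without, while over all probe sets 56.1% of the differences were above 0. Only Egr1 among them passed the test of the difference. Egr2 read 48.5 and 61.6 with OHT and 1255 and 1091 with both (3.91, adjusted p = 1.9e-06), Fos 214 and 205 and then 1901 and 2817 (3.32), Jun 334 and 449.8 and then 4598 and 4294 (3.44), and Atf3 130.0 and 152 and then 2227 and 2685 (3.90). These encode transcription factors of the first response to growth signals and stress. Nr4a1, Nr4a2 and Nr4a3 were not called (0.28, -0.07 and 0.68). Genes of mRNA decay and growth restraint gave 9 higher and none lower of 13 (median 0.71), and those of growth arrest 7 higher and none lower of 14 (1 lower after quantile normalization). Gadd45g, a stress and growth arrest gene, had the largest rise of all genes that passed with non-overlapping arrays, from 46.2 and 103 with OHT to 2416 and 3352 with both (4.91, SE 0.27, adjusted p = 3.7e-06), with 4.63 in uninduced cells. Gadd45b, raised by OHT, read 3185 and 2765 and then 9604 and 10905 (1.78).

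Genes of NF-kB signaling and its feedback rose as well. Of 20 tested 15 were higher and Nfkbib alone was lower, with a median of 1.07 beside 1.25 in uninduced cells, and of the 17 tested on both sides 12 were higher. Nfkbia, the inhibitor that NF-kB induces, read 1871 and 2212 with OHT and 8526 and 7400.1 with both (1.95, SE 0.14, adjusted p = 1.2e-05), and the adhesion receptor Icam1 (2.80), the deubiquitinase Tnfaip3 (2.25) and Nfkbie (2.24) were also higher. All 4 inhibitors of bHLH factors tested rose, with Id1 (1.84), Id2 (3.97), Id3 (2.33) and Id4 (2.96) higher, while of the E protein genes Tcf12 was higher (0.51), Tcf3 lower (-1.14) and Tcf4 not called (0.11). Id2 read 163 and 362 with OHT and 3748 and 4737 with both, and 616 and 1017 and then 6497 and 6438 in uninduced cells. Id2 was lower with OHT than without (-1.60, adjusted p = 0.047), a difference not called with CHX (-0.62, adjusted p = 0.91). Of 16 BMP targets and regulators 9 were higher and 1 lower, among them Smad7, an inhibitory Smad (2.61). Of 16 MAP kinase phosphatase and Sprouty genes 10 were higher and 2 lower, with Dusp8 at 1.91 and the OHT-raised Dusp2 at -0.81 (511 and 414 with OHT, 199 and 316 with both). Of 13 Kruppel-like factors 7 were higher, led by Klf10 (3.56), and Klf5 was lower (-1.54). Of 6 arrestin-family genes, which act in receptor traffic and glucose uptake, 4 were higher and none lower (2 of 4 tested on both sides), with Arrdc3 at 3.38 and Txnip at 4.55, and Txnip read 38.0 and 29.4 with OHT and 1073 and 1679.6 with both.

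**Figure D4:**
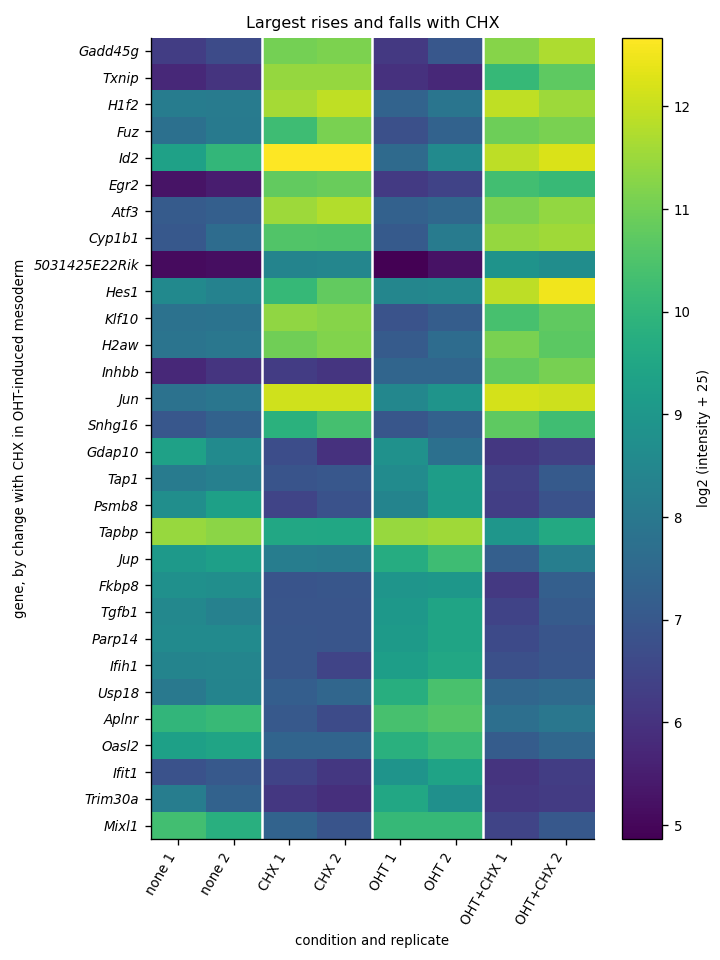
Expression of the 15 genes with the largest rises and the 15 with the largest falls with CHX in OHT-induced cells (rows) on the 8 NERT mesoderm arrays (columns), as log2 of intensity plus 25 in colour. Most rows change with CHX whether or not OHT was added, while Inhbb is highest with OHT and CHX, at 1766 and 2108, and Ifit1 and Usp18 are highest with OHT alone.

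Genes of early mesoderm and the primitive streak were more often lower than higher. Of 20 tested 11 were lower and 2 higher, with a median of -0.65 beside -0.61 in uninduced cells. Mixl1, a homeobox factor of the streak, read 1057 and 1059.8 with OHT and 63.5 and 104 with both (-3.34, SE 0.25, adjusted p = 1.2e-05), and Aplnr, the apelin receptor, 1335 and 1503 and then 187 and 223 (-2.65, SE 0.19, adjusted p = 1.1e-05). Lhx1 (-1.61), Evx1 (-1.52), Fgf8 (-1.39), Eomes (-1.22), Gsc (-0.91), Tbx6 (-0.67) and Mesp1 (-0.54) were also lower. Kdr, which encodes Flk1, read 229.7 and 173 and then 236 and 274 and was not called (0.31, SE 0.22, adjusted p = 0.27), and Nodal (0.59) and Foxf1 (1.12) were higher. With equal array medians 1 gene of the list was higher and 12 were lower, and of the 17 tested on both sides 2 were higher and 8 lower. In the Nodal pathway 7 of 18 genes were higher and 3 lower, the latter being Dand5, the activin-binding protein Fst (-1.69) and the receptor Acvr2b (-1.52).

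Genes of other lineages were often weakly expressed without CHX, which shapes their counts. Of 20 neuroectoderm genes measured 15 were tested, and 8 were higher and 1 lower, but Pax6, Sox1, Zic1, Neurog3 and Neurod1 were tested only through the CHX arrays on which they were high, and of the 7 genes tested on both sides 3 were higher and 1 lower. Sox1 read 2.49 and 4.21 with OHT and 184 and 216 with both (2.99), and Otx2 was higher by 1.61. Fabp7, a fatty acid-binding protein of radial glia raised by OHT, was lower, at 608 and 565 and then 394 and 436 (-0.47, adjusted p = 0.044). Of 9 endoderm genes 5 were higher and 1 lower (3 and 1 of 7 tested on both sides), with Sox17 at 29.1 and 48.5 and then 289 and 167 (1.96). Of 22 pluripotency genes 10 were higher and 3 lower (9 and 3 of 21 on both sides). Pou5f1 (Oct4) was among the lower ones, from 2459.6 and 1945 with OHT to 571 and 1398 with both (-1.26, SE 0.36, adjusted p = 0.018), while Nanog (0.35) and Esrrb (-0.01) were not called. Of 16 blood and endothelial regulators 4 were higher, among them Gata2 (2.10), and Lmo2 was lower (-1.28), which is no larger a share of rises than among all genes. Of the 11 tested on both sides 2 were higher, and after quantile normalization or with equal array medians 3 of the 16 were higher and 2 lower. Of 15 Sox factors 8 were higher and Sox21 was lower (-0.54), or 5 and 1 of 12 on both sides, and of 11 retinoic acid genes 7 were higher (6 of 8 on both sides) and Cyp26a1, which degrades retinoic acid, was lower (-1.25).

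Interferon-response genes were mostly lower with CHX. Of 17 tested 13 were lower in induced cells, with a median of -1.13, and 9 were lower in uninduced cells, with a median of -0.66. Oasl2 read 882 and 1122 with OHT and 116 and 151 with both (-2.69, adjusted p = 9.9e-06), and 609.5 and 665 and then 142 and 143 in uninduced cells. Genes of antigen processing were among them, including the immunoproteasome subunit Psmb8 (309 and 559, then 55.1 and 88.1, -2.21, adjusted p = 0.00027), the peptide transporter Tap1 (-2.20) and B2m (-1.13). Stat2, which carries the interferon signal, was also lower (-1.01). Irf1 was the exception, at 2719 and 2249 with OHT and 5222 and 6085 with both (1.18, adjusted p = 0.00069), and Irf7 (-0.21), Irf9 (-0.02) and Rsad2 (0.07) were not called. Among the 15 largest falls outside the list were the interferon-induced Trim30a (-3.00), the viral RNA sensor Ifih1 (-2.53), Parp14 (-2.50) and the peptide-loading protein Tapbp (-2.21).

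Among the remaining lists none of 20 cytosolic ribosomal protein genes was called in either direction, with a median of -0.01 and a range of -0.33 to 0.20. Substrates and factors of nonsense-mediated decay, which acts on mRNAs in translation, gave 9 higher and none lower of 19 (1 lower after quantile normalization), with Snhg12 (2.27), Snhg5 (2.10) and Snhg1 (2.06) at the top. Snhg genes as a whole did not rise alike. All symbols beginning Snhg were counted after their values were seen, and of the 13 tested 6 were higher and 5 lower, with a median of 0.11. Of 29 cell cycle genes 5 were higher and 8 lower, the latter with cyclins Ccnd2 (-1.34) and Ccnd3 (-1.11), and the former with Cdt1 (1.52). Of 21 genes of amino acid and unfolded protein stress 3 were higher and 7 lower, and Atf4, the central factor of that response, read 898 and 875 with OHT and 5804 and 5274 with both (2.61, adjusted p = 3.9e-06), while its known target Asns was not called (0.24). Of 16 p53 and apoptosis genes 7 were higher and 3 lower, of 14 heat shock genes 4 and 1, of 11 genes of the Myc network 2 and 3, and of 14 cholesterol synthesis genes 2 and 3. In other lists the balance moved with the scaling. Of 17 ephrin, Eph and semaphorin genes 6 were higher and 2 lower, and after quantile normalization or with equal array medians 4 and 4. Of 17 hypoxia and glycolysis genes 4 were higher and 3 lower, with 3 and 4 after quantile normalization, and of 18 matrix and integrin genes 2 were higher and 5 lower, with 1 and 8 under both scalings. Tgfb1, a cytokine outside the lists, was among the 15 largest falls, from 497 and 663 to 61.0 and 113 (-2.46, adjusted p = 4.4e-05), although its other probe set was not called.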

How the data were processed

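EB5 NERT and control cells were profiled on 16 Affymetrix Mouse Genome 430 2.0 arrays. The deposited intensities are linear values that the authors computed with the dChip model, after invariant-set normalization against the control mesoderm array treated with OHT. They were used without further scaling. Detection calls were not used here, and precision is limited by the number of arrays. By the platform annotation a single gene symbol is given for 34945 of 45037 probe sets, more than 1 for 932 and no symbol for 9160, and a gene was read from its brightest probe set naming it alone (18193 genes). For testing, 25 was added, log2 taken, and the 23971 probe sets kept whose mean reached 50 in any group. The linear model (lmFit, then eBayes with an intensity trend; limma 3.58.1, R 4.3.3) covered the 8 NERT mesoderm arrays as 4 groups, leaving 4 residual degrees of freedom. Contrasts were CHX with OHT, CHX without OHT and their difference, and OHT with and without CHX. The response to OHT in ESC was the mean over both media in a fit to the 16 arrays (25847 probe sets, residual degrees of freedom 6). All tests are two-sided, with Benjamini-Hochberg adjustment over probe sets and a threshold of 0.05.

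Named genes were drawn from those with the 15 strongest rises and the 15 strongest falls with CHX where arrays did not overlap, the 10 largest in each direction of the difference, the 12 largest OHT rises of each list raised by OHT, the 12 largest rises and falls with CHX within these lists, and members of 35 gene lists, of which 1 holds genes the study discusses and is not described as a group; not every gene that met this rule is described. Members and lists were chosen with earlier results of these data known. Cbfa2t3, Epas1 and the dimmer probe sets of Hes5, Inhbb, Fzd5, Nrarp and Runx1 are outside this rule and were chosen after their values were seen. Replicate numbers were not taken to pair arrays, since 2 numbers are too few to check it. The scripts were tested on simulated data, and tables and figures were made in Python 3.11.15 (pandas 2.3.3, numpy 2.4.6, matplotlib 3.10.9). Genes without a single-gene probe set were not analysed here.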

Additional observations from a re-analysis of the deposited data

Results flagged for a closer look

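The effect of CHX differed between induced and uninduced mesodermal cells for 6 probe sets by limma's test of the difference itself. The difference, with OHT minus without OHT on the log2 scale, was 3.27 for Inhbb, 2.64 for the dimmer probe set of Hes5, 2.64 for Fzd5, -2.70 for Egr1, -2.33 for Ifit1 and -2.25 for Cxcl10. For Inhbb, Hes5 and Fzd5 the rise with CHX was larger with OHT, for Egr1 and Cxcl10 it was larger without OHT, and for Ifit1 the fall was larger with OHT. Inhbb, Fzd5 and Egr1 passed in all 17 alternative settings, with highest adjusted p-values of 0.021, 0.036 and 0.021. Hes5 passed in 10 and Ifit1 and Cxcl10 in 9 each, with highest adjusted p-values of 0.24, 0.33 and 0.33. Groups of 2 arrays are too small for a check of single arrays that stand apart.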

How the results depend on the processing

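The alternatives changed 1 choice at a time, and no probe set called in one direction with CHX was called in the other. The median of the list raised without CHX, -0.05, changed sign, to 0.07 with 5 added and 0.01 at a group mean of 100 or more, and so did the changes of Kalrn (-0.23 to 0.07) and Cntnap2 (-0.12 to 0.13), neither of which was called. Quantile normalization and equal array medians gave 5196 and 5097 lower probe sets with CHX in induced cells (3360 on the deposited scale), 4251 and 4302 in uninduced cells, and medians of 0.32 and 0.36 for the list from ESC and 0.71 and 0.68 for the list raised with CHX. Quantile normalization also gave 75 lower probe sets of the list raised without CHX. A criterion of 2-fold and a difference over 50 gave 3204 higher and 1230 lower, and lists chosen by it gave a median of 0.78 with CHX and 76 lower without CHX. The test of the difference gave 12 higher and 7 lower with 100 added, 6 and 5 with all 16 arrays, and 1 lower without the filter on low values. For the list raised with CHX the median was 0.72 with 100 added, 0.88 without a trend and 1.03, with 6 lower, without the filter.

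Replicate numbers, 2 a group, had deviations that correlated at 0.007 to 0.513 between groups and do not establish pairs. With the replicate number as a block the difference gave 12 higher and 7 lower, the list raised without CHX 73 higher and 75 lower, and the list raised with CHX a median of 0.84 and 20 lower.

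Leaving out each array in turn gave 4605 to 6085 higher and 2079 to 3964 lower in induced cells, 2873 to 5834 and 1017 to 3544 in uninduced cells, and 2 to 18 and 1 to 30 for the difference, the highest without replicate 2 of OHT with CHX. The list from ESC gave medians of 0.44 to 0.64, with 53 to 62 higher and 13 to 22 lower. The list raised with CHX gave 0.76 to 1.19, 49 to 168 and 3 to 11, and the list raised without CHX -0.30 to 0.13, 20 to 62 and 21 to 74, since these lists were drawn anew each time. A group left with 1 array is assumed to vary like the others. Nrarp passed in some settings (adjusted p = 0.013 on the 4 OHT arrays alone), and Fabp7 (adjusted p = 0.15 without replicate 1 of OHT) and Dusp2 (adjusted p = 0.075 there) did not pass in some. Dim probe sets, near the median intensity of 42.9 to 46.9, have compressed changes on this scale, and 2 arrays a condition limit every comparison.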

Other observations

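Some gene families stood out outside the lists above and were chosen after their values were seen, so that they are given as counts with no test of the family. Of 298 genes with symbols beginning Zfp, most of which encode zinc finger proteins, 214 (71.8%) were higher with CHX in induced cells and 9 (3.02%) lower, with a median change of 1.01 beside 0.17 for all genes. In uninduced cells 206 were higher and 9 lower, with a median of 0.85. Zfp82 read 147 and 134 with OHT and 1856 and 1394 with OHT and CHX, and 151 and 167 and then 648 and 500.2 without OHT. Of 15 core and linker histone genes 11 were higher and 3 lower, with a median of 1.02. The linker histone gene H1f2 read 137 and 212 with OHT and 3899 and 2925 with both (4.12, adjusted p = 3.4e-06 by limma), and 3.66 in uninduced cells.

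Solute carrier and proteasome genes were closer to the background. Of 220 solute carrier genes (symbols beginning Slc) 50 (22.7%) were higher and 29 (13.2%) lower, and of 48 genes with symbols beginning Psm, mostly proteasome subunits, 9 were higher and 11 lower. Of 40 genes with interferon-type symbols, some of which are also in the interferon list, 28 (70.0%) were lower and none higher, with a median of -1.30 and, in uninduced cells, 26 lower and a median of -0.99. These were mainly symbols beginning Gbp, Ifi, Ifit, Irg and Oas, with some single symbols added. The choice left out Irf1, Cxcl10 (0.96) and Cxcl11 (1.05), all higher with CHX in induced cells, so the count depends on it. Fuz, a planar polarity effector, and Cyp1b1, a cytochrome P450, were among the 15 largest rises, at 85.2 and 134 and then 1972 and 2193 for Fuz (3.99) and 111 and 253 and then 2737 and 2983 for Cyp1b1 (3.89).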
